A study of Mus musculus with 2 samples.

Results

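RUNX2 peak regions that lay beside the ends of at least 2 protein-coding genes were examined in MC3T3-E1, a mouse line of osteoblast precursors. The data came from 2 CUT&Tag libraries of untreated cells, replicates of 1 group, with no control library among the samples. CUT&Tag uses an antibody, here against RUNX2, to bring the transposase Tn5 to the chromatin where the protein sits, and the tagged DNA is sequenced. Overlapping peaks of both lists (at least 1 bp) were merged, and a region that held peaks of both replicates was called shared. The position of a shared region was the midpoint of its widest replicate 1 peak. A region was kept when this position lay within 1 kb of an end of at least 2 coding genes on chromosomes 1 to 19, by RefSeq gene spans on GRCm38.p6. The rule kept 1140 of 17836 shared regions on these chromosomes (6.39%, 95% Wilson interval 6.04 to 6.76), and 18133 shared regions were found on all chromosomes. They are called gene-pair regions here. They made up 1140 of the 5906 shared regions within 1 kb of any coding gene end (19.3%, 18.3 to 20.3). Wilson intervals cover counting error only, and nothing in the labels says whether the replicates came from separate cultures.

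RUNX2 is the Runt-family transcription factor that osteoblasts need to form, and with its partner CBFB it binds a short element whose core is read TGTGGT or TGCGGT. Many mammalian genes lie in pairs whose start sites face away from each other across a short stretch of DNA. Such a stretch can serve as the promoter of both genes, is usually rich in CpG, and often belongs to genes of DNA repair, mitochondria or RNA processing that most cells use. Tn5 also cuts open DNA where the protein is absent, and no control library was at hand to measure this.

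The promoter windows of 4 pairs are shown to let the DNA between such starts be read, with and without a RUNX core. Fbh1 with Ankrd16 and Lmf2 with Ncaph2 were the best ranked head-to-head pairs with a window for both genes. Sirt3 with Psmd13 and Hspd1 with Hspe1 are well-known shared promoters, chosen for display after their motifs were seen. The windows are RefSeq sequences of GRCm38.p6 from 250 bases before to 50 after the start, written 5′ to 3′ on the strand of the gene. Capitals mark the RUNX core (TGTGGT or TGCGGT), the ETS motif CCGGAAG and the NF-Y motif CCAAT, on either strand. The Ankrd16 window lay at chr2:11777503-11777802 on the plus strand and had 2 NF-Y motifs and no RUNX core. The Fbh1 window, at 11777536 to 11777835 on the minus strand, shared 267 of its bases with it and is not printed. The Lmf2 window lay at chr15:89355610-89355909 on the minus strand and the Ncaph2 window at chr15:89355469-89355768 on the plus strand. These 2 windows shared 159 bases and had the same single ETS motif and no RUNX core. The Sirt3 window lay at chr7:140882260-140882559 on the minus strand and the Psmd13 window at chr7:140882144-140882443 on the plus strand. Their shared 184 bases held 1 RUNX core and 1 ETS motif. The Hspd1 window lay at chr1:55088194-55088493 on the minus strand and had 1 RUNX core, and the Hspe1 window at chr1:55087898-55088197 on the plus strand had 2 ETS motifs on opposite strands that overlap and no RUNX core, the 2 windows sharing only 4 bases.
Ankrd16: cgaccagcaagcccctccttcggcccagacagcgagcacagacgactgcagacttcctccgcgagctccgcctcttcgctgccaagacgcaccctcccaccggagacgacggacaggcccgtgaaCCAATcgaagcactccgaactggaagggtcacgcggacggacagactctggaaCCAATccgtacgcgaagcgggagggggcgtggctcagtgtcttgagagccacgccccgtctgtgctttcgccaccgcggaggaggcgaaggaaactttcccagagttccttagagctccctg
Lmf2: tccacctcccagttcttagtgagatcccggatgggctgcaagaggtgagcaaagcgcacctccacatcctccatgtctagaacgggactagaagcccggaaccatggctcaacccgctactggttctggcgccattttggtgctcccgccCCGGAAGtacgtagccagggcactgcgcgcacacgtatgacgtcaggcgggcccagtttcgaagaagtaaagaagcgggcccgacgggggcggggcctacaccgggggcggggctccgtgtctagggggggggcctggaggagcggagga
Ncaph2: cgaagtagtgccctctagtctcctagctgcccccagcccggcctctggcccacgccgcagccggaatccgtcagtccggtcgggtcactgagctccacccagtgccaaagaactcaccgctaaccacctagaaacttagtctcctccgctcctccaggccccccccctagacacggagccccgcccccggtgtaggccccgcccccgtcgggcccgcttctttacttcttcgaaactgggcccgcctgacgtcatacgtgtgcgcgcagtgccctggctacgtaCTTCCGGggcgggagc
Sirt3: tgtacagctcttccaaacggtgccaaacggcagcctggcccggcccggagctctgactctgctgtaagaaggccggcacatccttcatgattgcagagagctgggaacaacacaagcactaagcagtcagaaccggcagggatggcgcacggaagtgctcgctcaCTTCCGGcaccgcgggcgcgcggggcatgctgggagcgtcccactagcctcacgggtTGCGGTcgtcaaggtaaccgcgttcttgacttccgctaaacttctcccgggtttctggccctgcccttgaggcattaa
Psmd13: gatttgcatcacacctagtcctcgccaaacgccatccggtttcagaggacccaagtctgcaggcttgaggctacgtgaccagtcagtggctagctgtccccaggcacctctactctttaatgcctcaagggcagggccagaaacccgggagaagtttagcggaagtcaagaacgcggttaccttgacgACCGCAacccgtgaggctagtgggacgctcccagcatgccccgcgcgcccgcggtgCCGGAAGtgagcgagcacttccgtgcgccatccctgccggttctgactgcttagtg
Hspd1: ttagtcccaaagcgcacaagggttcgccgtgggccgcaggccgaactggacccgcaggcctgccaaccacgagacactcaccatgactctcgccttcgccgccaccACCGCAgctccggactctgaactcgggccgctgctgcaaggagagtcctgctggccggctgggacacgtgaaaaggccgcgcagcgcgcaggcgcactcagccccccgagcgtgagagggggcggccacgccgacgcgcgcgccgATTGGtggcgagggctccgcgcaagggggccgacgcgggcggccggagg
Hspe1: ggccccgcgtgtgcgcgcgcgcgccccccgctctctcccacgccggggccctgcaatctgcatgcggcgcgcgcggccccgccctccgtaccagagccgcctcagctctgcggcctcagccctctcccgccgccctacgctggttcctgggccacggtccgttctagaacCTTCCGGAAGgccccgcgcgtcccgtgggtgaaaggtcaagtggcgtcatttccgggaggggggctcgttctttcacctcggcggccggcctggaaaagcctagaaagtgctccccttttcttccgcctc

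All 4 of these pairs were taken from the gene-pair regions, which by the rule hold peaks of both replicates. The Fbh1/Ankrd16 region, between a gene for a DNA helicase and a gene for an ankyrin repeat protein, measured 1367 bp in the replicate 1 list and 1281 bp in that of replicate 2. The Lmf2/Ncaph2 region, between a lipase maturation factor gene and a condensin II subunit gene, was 1157 and 1565 bp wide. The Sirt3/Psmd13 region, between the mitochondrial deacetylase gene and a proteasome subunit gene, was 739 bp in each replicate. The region of Hspd1 and Hspe1, which encode the mitochondrial chaperonin and its co-chaperonin, was 644 and 577 bp wide. Each of the 4 regions covered the starts of both genes, whose distances were 168 bp for Fbh1/Ankrd16, 25 bp for Lmf2/Ncaph2, 85 bp for Sirt3/Psmd13 and an overlap of 95 bp for Hspd1/Hspe1.

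Most gene-pair regions sat at gene pairs with starts on opposite strands, as "bidirectional" implies, but about 1 in 5 of those with a known class did not. Strand was known for 16457 of 20665 coding genes (79.6%) and for 1900 of the 2255 genes at these regions (84.3%), because it was read from the promoter table. Of 867 regions whose class could be told, 678 (78.2%, 75.3 to 80.8) were head-to-head, with start sites on opposite strands. A region with opposite starts counted as such even if another gene near it lacked a strand. The starts faced away from each other across a gap in 450 of the 678, while in 228 the genes overlapped at their starts. Another 161 (18.6%, 16.1 to 21.3) had the start of one gene and the stop of another. In 152 of these 161 both genes lay on the same strand, so that an upstream gene ended close to the start of the next. The region was nearer to the start than to the stop in 141 of the 161 (87.6%, 81.6 to 91.8), at a median of 137 bp from the start and 496 bp from the stop. Only 20 regions had starts on 1 strand and 8 had stops only. For the remaining 273 a gene lacked a strand and the class stayed undetermined, among them all 17 on chromosome 18.

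The rule itself limited regions to ends that lie close together. Among the 678 head-to-head regions the starts were separated in 450, by a median of 100.5 bp (interquartile range 48.25 to 225.8). In the other 228 the genes overlapped at their starts, by a median of 247.5 bp. The regions were simple in build, since 1111 of 1140 (97.5%) consisted of 1 peak of each list. Ends of 2 coding genes were within 1 kb in 1118 regions and of 3 in 22. The regions stood at 1137 different sets of genes, so 3 sets had 2 regions each. A noncoding gene end also lay within 1 kb of 46 regions (4.04%, 3.04 to 5.34), against 815 of 4766 regions at 1 coding end (17.1%, 16.1 to 18.2). By chromosome the count ran from 17 to 121, highest on chromosome 7, where gene-pair regions made up 11.3% of the shared regions, against 3.28% on chromosome 18.

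Head-to-head gene starts had a shared region within 1 kb far more often than starts with no other coding end nearby. Of all 16457 coding gene starts with a known strand, 33.0% had a shared region within 1 kb. Of the 1966 starts with a coding start on the opposite strand within 2 kb, 1421 (72.3%, 70.3 to 74.2) had one. Of the 13134 starts with no other coding end within 2 kb, 3488 (26.6%, 25.8 to 27.3) had one. Each replicate list alone gave the same order, with 77.7% of head-to-head starts in replicate 1 and 76.9% in replicate 2, against 30.8% and 31.1% of starts with no other coding end. The 2 starts of a pair often share 1 region, so the intervals for starts are too narrow. A region at the partner also counts for a head-to-head start, which raises its share against a start with no other coding end. The shares were not corrected for this, and a noncoding gene end may still lie near the latter starts. Counted as pairs, 675 of 878 head-to-head pairs with starts at most 1000 bp apart (76.9%, 74.0 to 79.5) had a shared region.

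Beside the stop of another gene the share was much closer to that of starts with no neighbour. Starts that had the stop of another gene nearby carried a region in 304 of 898 cases (33.9%, 30.8 to 37.0), close to the 33.0% of all starts. Starts with another start on the same strand did so in 43 of 98 cases (43.9%, 34.5 to 53.7). Stops rarely had a region. A stop with another stop within 2 kb had a region in 22 of 1897 cases (1.16%, 0.767 to 1.75), against 113 of 11235 stops with no other coding end (1.01%, 0.837 to 1.21). These intervals overlapped. A stop with the start of another gene nearby had one in 171 of 905 cases (18.9%, 16.5 to 21.6).

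The share also followed the distance between head-to-head starts. For starts that overlapped by 1001 to 2000 bp it was 32.4% (24.2 to 41.8), for those that overlapped by 301 to 1000 bp 63.5% (57.7 to 69.0) and for those that overlapped by 0 to 300 bp 78.6% (74.0 to 82.6). It was 80.6% (77.2 to 83.7) at 1 to 100 bp apart and 83.7% (79.6 to 87.1) at 101 to 300 bp. At 301 to 1000 bp apart it was 71.2% (64.4 to 77.2), and at 1001 to 2000 bp 34.8% (26.7 to 43.9). The shares of the 3 classes within 300 bp of each other had overlapping intervals, and those beyond 1000 bp on either side fell near the 33.0% of all starts. A region at the partner comes within 1 kb less often as the starts lie farther apart. Some fall with distance is thus built into the 1 kb limit, and the shares were not corrected for it. The replicates gave the same pattern, at 41.0% and 37.1% for the longest overlap, 87.4% and 86.9% at 101 to 300 bp apart, and 42.6% and 40.0% at 1001 to 2000 bp.

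**Figure D1:**
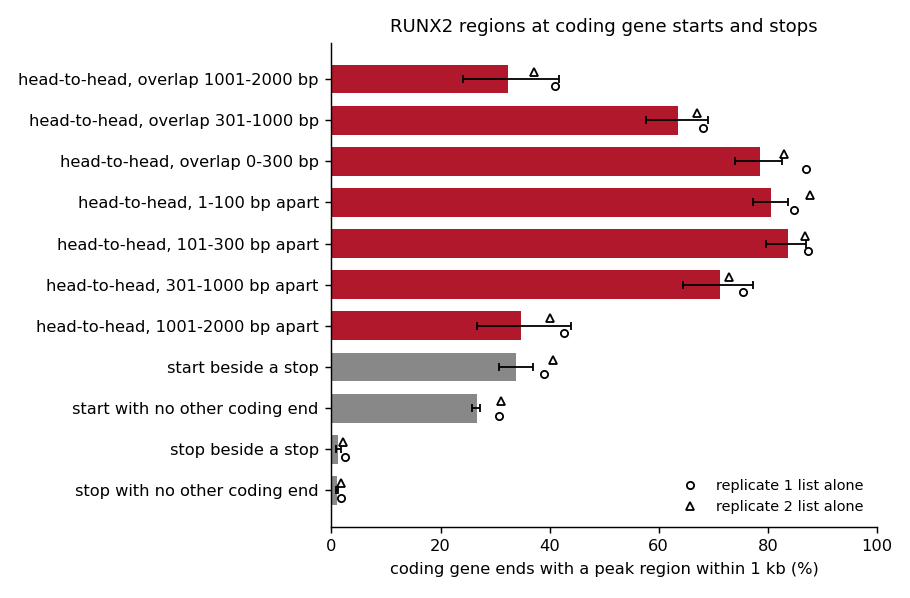
Share of coding gene ends with a shared region within 1 kb (bars, %, with 95% Wilson intervals), for head-to-head starts by the distance between the starts (red) and for other starts and for stops (grey). Circles and triangles give the share in the peak list of replicate 1 and of replicate 2 alone. The share is highest, at 83.7%, for starts 101 to 300 bp apart, and 26.6% for starts with no other coding end.

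CpG content moved with this difference, so the shares were also set side by side within classes of the promoter window, a split chosen after the data were seen. CpG observed over expected is the number of CpG dinucleotides over that expected from the C and G content. Its median was 0.861 (interquartile range 0.733 to 0.978) at head-to-head regions, 0.728 at head-to-head starts without a region, 0.801 at starts with no other coding end that had a region, and 0.275 at such starts without one. Head-to-head starts without a region include pairs up to 2000 bp apart, and the medians were not matched for this distance. With a ratio under 0.4, 29 of 110 head-to-head starts (26.4%, 19.03 to 35.29) had a region, against 161 of 4704 starts with no other coding end (3.42%, 2.94 to 3.98). From 0.4 to 0.6 the shares were 57.7% (49.5 to 65.6) of head-to-head starts and 29.4% (26.9 to 32.1) of starts with no other coding end. From 0.6 to 0.8 they were 77.9% (73.6 to 81.7) and 49.3% (47.0 to 51.5), in the same order. From 0.8 to 1 they were 81.1% (77.7 to 84.1) and 60.0% (57.7 to 62.2), and above that 84.4% (79.7 to 88.2) and 61.5% (57.6 to 65.2). Head-to-head starts thus had the higher share in each of the 5 classes, and the intervals did not overlap in any of them. The class is that of a start's own window, however, while a region within 1 kb may lie at the partner. The Pnpla7 window, for one, had a ratio of 0.348 beside 0.897 for its partner Mrpl41. The classes therefore do not match the CpG content under the regions, and whether the difference holds at equal CpG was not tested.

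Peaks at paired ends were wider than peaks at 1 coding end and elsewhere. Width is the only size the lists give, since they hold no height or score. The median width at the 1140 gene-pair regions was 609.5 bp in replicate 1 and 607.0 bp in replicate 2, against 526.0 and 534.0 bp at the 4766 regions at 1 coding end, and 466.0 and 469.0 bp at the 6729 regions inside genes. The difference from 1 coding end exceeded the distance between replicates, with means of the medians of 608.2 ± 1.77 bp and 530.0 ± 5.66 bp (SD, n = 2 replicates each). Within the gene-pair regions the head-to-head ones were widest among the larger classes, at 623.5 and 630.5 bp, against 531.0 and 543.0 bp for regions at 1 coding start. The start-and-stop regions had medians of 559.0 and 528.0 bp and the 8 stops-only regions 418.0 and 294.5 bp. Peaks of at least 1 kb in both replicates were present in 49 gene-pair regions (4.30%, 3.27 to 5.64), against 441 of the 16696 other shared regions (2.64%, 2.41 to 2.90). Regions at noncoding gene ends only had as high a share, at 40 of 888 (4.50%, 3.33 to 6.08), and those at 1 coding stop had 6 of 136 (4.41%, 2.04 to 9.29). A region that spans a pair of starts has more promoter DNA to cover, and its width was not compared per start.

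**Figure D2:**
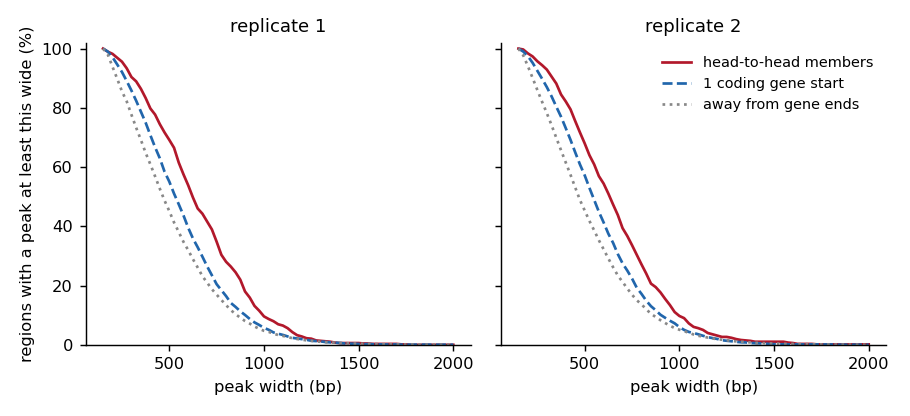
Share of regions (%) with a peak at least as wide as the value on the horizontal axis (bp), for head-to-head gene-pair regions (red, solid), regions at 1 coding gene start (blue, dashed) and regions over 1 kb from any gene end (grey, dotted), in each replicate. The red curve lies to the right, with medians of 623.5 and 630.5 bp in replicates 1 and 2, against 531.0 and 543.0 bp at 1 coding start.

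Peaks at paired ends were also found again in the other replicate more often. By the midpoint of each peak of a list, 1156 of 1298 gene-pair peaks of replicate 1 (89.1%, 87.2 to 90.6) overlapped a replicate 2 peak, and 1142 of 1267 gene-pair peaks of replicate 2 (90.1%, 88.4 to 91.7) overlapped a replicate 1 peak. The mean of the 2 values was 89.6% (SD 0.76), against 82.4% (0.43) of peaks at 1 coding end and 62.1% (0.92) of peaks elsewhere. Both values count the same overlap, once from each list, so these SDs do not measure the spread between replicates. Wide peaks were shared more often everywhere, so each list was also cut by peak width into 5 parts of like size. In the narrowest part 57.8% (48.4 to 66.6) of gene-pair peaks of replicate 1 and 50.5% (41.0 to 59.9) of replicate 2 were shared. At 1 coding end these values were 50.4% (46.6 to 54.1) and 47.5% (43.8 to 51.3), whose intervals overlapped those at paired ends. Elsewhere they were 33.4% (32.0 to 34.8) and 30.9% (29.5 to 32.2). Gene-pair peaks had a higher share than peaks at 1 coding end in all 5 parts of both lists, with intervals apart only in part 4 of replicate 2, at 97.8% (95.5 to 98.9) against 1337 of 1454 peaks at 1 coding end (90.4 to 93.2). In the widest part all classes were near the top, with 98.2% in each replicate at paired ends, 97.7% and 97.3% at 1 coding end and 95.8% and 95.7% elsewhere.

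At head-to-head pairs the region usually covered the starts of both genes. This was so in 539 of 678 regions (79.5%, 76.3 to 82.4), and the region position lay within 300 bp of the midpoint between the starts in 562 (82.9%, 79.9 to 85.5). The median distance was 130.5 bp to that midpoint and 104 bp to the nearer start. Regions at 1 coding start lay a median of 147 bp from it, which is no like comparison, since the nearer of 2 starts is closer by construction. The rule allows a region only within 1 kb of both starts, which keeps it near the midpoint where the starts are far apart. Where the starts were separated, the position fell between them in 23 of 225 regions at 1 to 100 bp apart (10.2%, 6.91 to 14.9), in 74 of 155 at 101 to 300 bp (47.7%, 40.0 to 55.6) and in 48 of 66 at 301 to 1000 bp (72.7%, 61.0 to 82.0). Of the 301 positions outside the gap, 158 (52.5%, 46.9 to 58.1) lay on the side of the minus-strand gene, an interval that includes an even split.

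**Figure D3:**
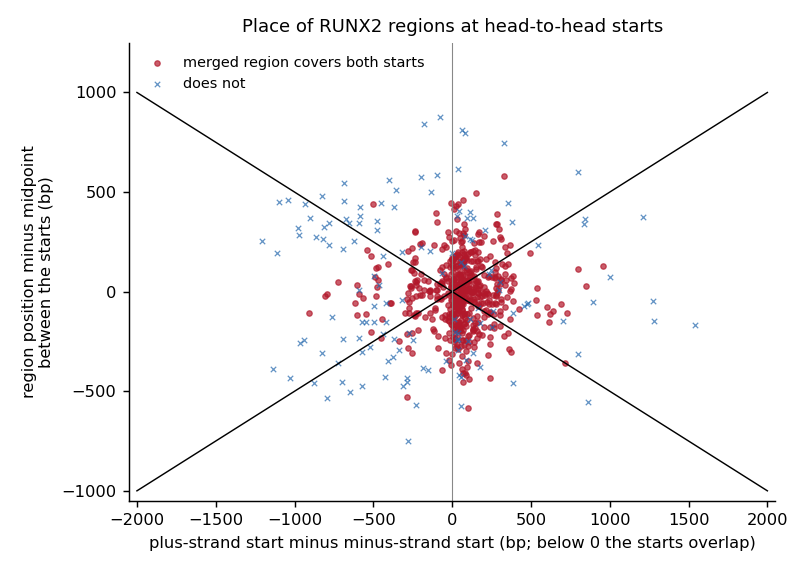
Position of each of the 678 head-to-head regions relative to the midpoint between the starts of both genes (vertical axis, bp) against the distance between the starts (horizontal axis, bp, below 0 where the genes overlap). Black lines mark the starts, red circles regions that cover both starts and blue crosses those that do not. Most points lie near 0 on both axes, with 82.9% within 300 bp of the midpoint.

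The 10 top-ranked regions by width over both replicates held genes of varied function. The first, at Tnfrsf12a and Hcfc1r1, measured 1864 bp in the replicate 1 list and 2115 bp in the other. By the rule it counts as a pair of stops, 873 bp from that of Tnfrsf12a, the receptor of the cytokine TWEAK, and 794 bp from that of Hcfc1r1. The Tnfrsf12a gene is only about as long as the region, which lay over it from 23675365 to 23677479 on chromosome 17 and covered its start, the only case among the 8 stops-only regions. The other stops-only regions named by the rule were narrower, at 808 and 738 bp (Ldhd/Znrf1), 575 and 685 bp (Cap1/Ppt1) and 409 and 234 bp (Poldip2/Tnfaip1).

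The next 2 were 1795 and 1782 bp wide at Usp5 and Cdca3, a deubiquitinase gene and a cell cycle gene of undetermined pair class, and 1773 and 1716 bp wide at Scaf1 and Rras. Scaf1, an SR-related factor that binds RNA polymerase II, and Rras, a small GTPase, start 1538 bp apart, and the region did not cover both starts. The Lpxn/Zfp91 region, at a focal adhesion adaptor gene and a zinc finger gene, was 1515 and 1601 bp wide and covered both starts, which overlap by 236 bp. The Ap4m1/Mcm7 region, at an adaptor complex gene and a gene of the replicative helicase, was 1272 and 1388 bp wide. A region of 1269 and 1328 bp held the starts of Gm12500, Ampd2, an AMP deaminase, and Gnat2, the cone transducin, the only triple among the top 10.

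Among the top-ranked regions at a start and a stop were those of Hnrnpul1 with Axl, 1476 and 1421 bp wide, and of Polr2a with Slc35g3, 1422 and 1421 bp wide. Hnrnpul1 encodes an RNA-binding protein, Axl a receptor tyrosine kinase, and Polr2a the largest subunit of RNA polymerase II. The region lay nearer to the starts of Hnrnpul1 and Polr2a, at 712 and 285 bp, than to the stops of Axl and Slc35g3, at 944 and 966 bp. The Tmeff1/Cavin4 region, 1223 and 1291 bp wide, was 414 bp from the Cavin4 start and 796 bp from the Tmeff1 stop. The Tomm40/Nectin2 region, 1329 and 1126 bp wide, was instead nearer to the stop, at 583 bp from that of Nectin2 and 619 bp from the start of the mitochondrial import channel gene Tomm40. Starts on 1 strand included nested or near-duplicate gene models, such as Gm21992 with Rbm14 (1159 and 1052 bp), which share a start coordinate, and the pair of Fkbp2 with an unnamed model beside it (846 and 861 bp), and that of Gspt1, a translation termination factor gene (796 and 821 bp). Among pairs of undetermined class, the region of Akt1s1, an mTORC1 substrate gene, and Tbc1d17 was 1415 and 1094 bp wide.

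Genes whose products most cells need were found at gene-pair regions more often than coding genes at large. Over all 20665 coding genes on these chromosomes, 2255 (10.9%) had an end at a gene-pair region. Of 66 DNA repair genes, 27 (40.9%, 29.9 to 53.0) did. So did 30 of 78 mitochondrial ribosomal protein genes (38.5%, 28.4 to 49.6) and 14 of 37 tRNA synthetase genes (37.8%, 24.1 to 53.9). Shares of 36.8% (25 of 68), 36.2% (17 of 47), 35.8% (24 of 67) and 35.7% (10 of 28) were found for splicing, respiratory complex I, histone and RNA polymerase genes. Lists nearer to the 10.9% were proteasome (12 of 50, 24.0%), chaperone (20 of 85, 23.5%), cell cycle and replication (11 of 48, 22.9%), translation initiation (12 of 53, 22.6%), mediator (6 of 28, 21.4%) and cytoplasmic ribosomal protein genes (16 of 80). For mediator genes the interval (10.2 to 39.5) included 10.9%. Zinc finger genes named Zfp had 33 of 388 (8.51%, 6.12 to 11.7). The lists above 10.9% were also high at any shared region, paired or not. There they ran from 47.8% of histone genes to 83.8% of tRNA synthetase genes, against 33.2% of all coding genes, with Zfp genes at 50.5%. High shares of these lists were thus not particular to gene pairs.

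The annotation alone, without any peak, also set the lists apart by how many of their genes have a neighbour. Another coding end stood within 2 kb of 6864 of all coding genes (33.2%), of 47.9% to 77.6% of the genes in the 13 lists above 10.9%, and of only 20.4% of Zfp genes. Of the 6864, 32.9% were at a gene-pair region. For DNA repair genes it stood near 47 (71.2%), of which 57.4% were at a gene-pair region, and for mitochondrial ribosomal protein genes near 50 (64.1%), of which 60.0% were. Among tRNA synthetase genes the shares were 51.4% and 73.7%, and among splicing genes 54.4% and 67.6%. Of the histone genes, 52 had a neighbour (77.6%), of which 46.2% were at a gene-pair region, and all 4 type IV collagen genes had one, with 0 at a gene-pair region. Given a neighbour, mediator genes were at 31.6%, near the 32.9% of all coding genes.

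**Figure D4:**
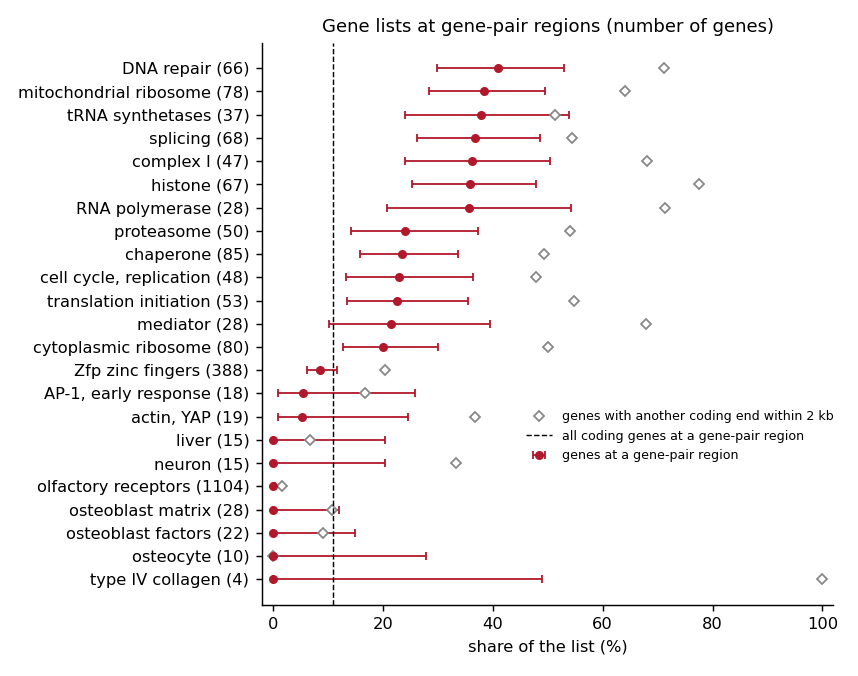
Share of each gene list at a gene-pair region (red, %, with 95% Wilson intervals) and share with another coding gene end within 2 kb in the annotation alone (open diamonds), with the number of genes in parentheses. The dashed line marks the 10.9% of all coding genes at a gene-pair region. DNA repair genes stand at 40.9%, and the osteoblast, osteocyte, neuron, liver, olfactory receptor and type IV collagen lists at 0.

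Named DNA repair pairs showed regions over both genes. The region of Brca1 and Nbr1, a homologous recombination gene and an autophagy receptor gene, measured 1177 bp in the replicate 1 list and 1208 bp in the other. The region of Pms2, a mismatch repair gene, and Aimp2, a scaffold protein of tRNA synthetases, was 931 and 905 bp wide.

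In the gene expression machinery, the region of Cbx5, which encodes a heterochromatin protein, and Hnrnpa1, a splicing factor gene, was 1113 and 1300 bp wide, and its position lay 7 bp from the Cbx5 start. The Ttc9c/Hnrnpul2 region was 1030 and 1360 bp wide. The Polr2h/Clcn2 region, at a subunit shared by the nuclear RNA polymerases and a chloride channel, was 989 and 1046 bp wide, and the Polr1a/Ptcd3 region 812 and 780 bp. Among mediator genes, Med20 (with Bysl and Gm20517) had 894 and 805 bp, Med31 640 and 963 bp, and Med22 (with the ribosomal protein gene Rpl7a) 780 and 626 bp. The Ttc9c/Hnrnpul2 and Med31 regions were the least alike between replicates of those in this group.

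Translation genes were represented in the cytosol and in mitochondria. The Mrps12/Sars2 region, at a mitochondrial ribosomal protein gene and the mitochondrial seryl-tRNA synthetase gene, was 791 and 1084 bp wide. Mrpl41 (with Pnpla7) had 941 and 955 bp and Mrpl43 (with the mitochondrial helicase gene Twnk) 1033 and 885 bp. Among initiation genes, Eif6 (with BC029722 and Mmp24) had 1357 and 1108 bp, Eif2b4 (with Snx17) 1092 and 818 bp and Eif1ad (with Banf1) 892 and 871 bp. For tRNA synthetase genes, the Yars/S100pbp region was 760 and 801 bp wide, while that of Vars was 596 and 1371 bp. For cytoplasmic ribosomal protein genes, the Rpl4 region (with Zwilch) was 618 and 792 bp wide. The other 2 named lay at stops. A region of 824 and 895 bp was 385 bp from the Rpl41 stop and 283 bp from the Zc3h10 start, and one of 619 and 817 bp was 880 bp from the Rpl7l1 stop and 392 bp from the 2310039H08Rik start.

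Chaperone, proteasome and respiratory genes followed. Hsp90b1, the chaperone of the endoplasmic reticulum, had a region of 1032 and 1173 bp shared with Ttc41. Cct7, a subunit of the cytosolic chaperonin, had 1139 and 1040 bp shared with Pradc1. Dnaja1, a co-chaperone of Hsp70 proteins and a neighbour of Aptx, had 1266 and 844 bp in a region that did not cover the Aptx start. The proteasome genes Psme2 (with Rnf31), Psmb8 (with Tap1) and Psmc5 (with Ftsj3) had 955 and 735 bp, 705 and 962 bp, and 828 and 695 bp in replicates 1 and 2. The complex I genes Ndufa11 (with Vmac), Ndufv3 (with Wdr4) and Ndufa2 (with Ik) had 760 and 763 bp, 642 and 961 bp, and 653 and 866 bp. The Cdc45/Ufd1 region, at a replication factor gene and a gene of protein degradation, was 1147 and 928 bp wide. At histone genes, the H3c13/H2bc18 region was 877 and 1013 bp wide, H2bc6/H1f4 652 and 763 bp, and H2bc9/H3c7 508 and 1364 bp, the largest of these replicate differences. The zinc finger genes Zfp524 (with Fiz1) and Zfp672 (with Sh3bp5l) had 1225 and 1107 bp, and 822 and 797 bp.

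Genes that mark the bone cell were not among the genes at paired ends. Of 28 osteoblast matrix genes, 22 osteoblast transcription factor genes and 10 osteocyte genes, 0 had an end at a gene-pair region. Shared regions did lie within 1 kb of an end of 9 matrix genes, 9 transcription factor genes and 1 osteocyte gene, in places with no second coding end within reach. Only 3 of the 28 matrix genes and 2 of the 22 factor genes have another coding end within 2 kb, and none of the 10 osteocyte genes, so the annotation leaves few that could qualify. The 15 neuron genes and the 15 liver genes, markers of other cell types, had 0 genes at any shared region. Olfactory receptor genes had 0 of 1104 at paired ends and 1 at any shared region. Early response and cytoskeletal lists had a region at an end of 14 of 18 (77.8%) and 12 of 19 genes (63.2%), but only 1 gene of each was at a paired end. These were Ier3, an early response gene, with Flot1 (754 and 521 bp), and Tead3, a partner of YAP, with Tulp1 (687 and 548 bp), where the position was 20 bp from the Tead3 start.

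Of 14 textbook head-to-head pairs in the autosomal table, 11 (78.6%, 52.4 to 92.4) had a region within 1 kb of an end of both genes. This was close to the 76.9% of all close head-to-head pairs. Besides Ap4m1/Mcm7, Sirt3/Psmd13, Hspd1/Hspe1 and Mrps12/Sars2 these included Ppat/Paics, 2 genes of purine synthesis (746 and 637 bp), Prkdc/Mcm4, a repair kinase and a replicative helicase gene (490 and 747 bp), and Atm/Npat, a checkpoint kinase and a histone gene activator (378 and 579 bp). Also among them were Hars/Hars2, the cytosolic and mitochondrial histidyl-tRNA synthetases (319 and 953 bp), Recql4/Lrrc14 (645 and 193 bp) and Surf1/Surf2 (207 and 570 bp). In these 3 regions the peak was narrow in 1 replicate and about 3 times as wide in the other, and the Hars/Hars2 region held 2 peaks of replicate 1. At Tbp and Psmb1 each gene had a shared region within 1 kb but none lay within 1 kb of both. The type IV collagen pairs Col4a1/Col4a2 and Col4a3/Col4a4, whose products form basement membranes, had no shared region at either gene.

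The share of promoter windows with a RUNX core was close to that of other promoters at these pairs. A window with a start within 100 bp of the gene's own span was available for 1076 of 1361 starts at head-to-head regions (79.1%). Head-to-head starts without a region also came from pairs up to 2000 bp apart, and the groups were not matched for distance. The core, TGTGGT or TGCGGT on either strand, was in 225 of these windows (20.9%, 18.6 to 23.4), against 80 of 381 windows of head-to-head starts without a region (21.0%, 17.2 to 25.4). It was in 22.1% (20.6 to 23.6) of windows at starts with no other coding end that had a region, in 21.4% (20.4 to 22.3) of such windows without one, and in 21.8% of the 12679 windows of all coding genes. Within the 5 classes of CpG ratio, from low to high, head-to-head starts with a region had the core in 10.3%, 13.4%, 22.0%, 21.2% and 22.3% of windows, against 21.0%, 18.3%, 23.6%, 19.4% and 23.3% without one, with overlapping intervals in every class. Starts with no other coding end differed within these classes, which the pooled shares do not show, and those with a region had far more CpG. With a ratio under 0.4 the core was in 32.9% (26.1 to 40.5) of their windows with a region and 23.5% (22.3 to 24.7) without. In the next 3 classes the shares were 22.4%, 22.8% and 20.8% with a region, against 18.6%, 18.7% and 17.1% without, and in the highest class 75 of 394 windows with a region had it, against 36 of 247 without. The share was thus higher with a region in all 5 classes, and the intervals were apart in the lowest one. By pair, 136 of 424 head-to-head regions (32.1%, 27.8 to 36.7) had a core in either window, against 33 of 105 close pairs without a region (31.4%, 23.3 to 40.8). With TGTGGT alone the share was 9.67% (8.04 to 11.6) at head-to-head regions, against 10.5% (7.81 to 14.0) without a region and 15.3% in all windows. At starts with no other coding end TGTGGT was in 12.8% (11.6 to 14.0) with a region and 17.3% (16.5 to 18.2) without. There it was thus less frequent with a region, pooled over CpG classes. The windows reach only 250 bases before and 50 after the start, so the rest of each region was not searched, and a missing core there says nothing about RUNX2 itself.

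The ETS motif, read by a family of factors active at many housekeeping promoters, did differ. CCGGAAG on either strand was in 334 of 1076 windows at head-to-head regions (31.0%, 28.3 to 33.9), against 59 of 381 at head-to-head starts without a region (15.5%, 12.2 to 19.5). At starts with no other coding end it was in 21.0% (19.5 to 22.5) with a region and 5.26% (4.77 to 5.79) without, and in 12.4% of all windows. With a CpG ratio under 0.4 the head-to-head shares were 3.45% (0.611 to 17.2) with a region and 3.70% (1.27 to 10.3) without, from 0.4 to 0.6 they were 20.7% (13.4 to 30.7) and 13.3% (6.91 to 24.2), and from 0.6 to 0.8 30.3% (25.4 to 35.5) and 19.1% (12.3 to 28.5), with overlapping intervals in these 3 classes. With a CpG ratio from 0.8 to 1 the intervals were apart, with 34.6% (30.4 to 39.0) of 463 head-to-head starts with a region, 17.6% (11.6 to 25.8) of 108 without, and 22.9% (20.4 to 25.5) of 1063 starts with no other coding end that had one. In the highest CpG class the head-to-head shares were 31.8% (26.1 to 38.0) with a region and 27.9% (16.7 to 42.7) without, again with overlapping intervals. At starts with no other coding end the ETS share was higher with a region in every CpG class, with intervals apart. From low to high CpG it was 5.59%, 19.3%, 20.5%, 22.9% and 24.6% with a region. Without one it was 1.72%, 7.24%, 10.6%, 15.1% and 14.6%. A higher ETS share with a region was thus not particular to pairs. Overlapping windows of a pair read the same bases, as in the Lmf2 and Ncaph2 sequences above, so these windows are not independent. Head-to-head starts without a region include pairs up to 2000 bp apart, while 668 of 678 head-to-head regions had starts at most 1000 bp apart. The ETS shares were not matched for this distance.

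Pooled over CpG classes, the SP, NF-Y and cAMP motifs were more frequent at starts with a region, paired or not, than at head-to-head starts without one. These shares, too, were not matched for the distance between starts. GGGCGG, the motif of SP factors, was in 67.4% (64.5 to 70.1) of windows at head-to-head regions, 53.0% (48.0 to 58.0) at head-to-head starts without one, and 71.1% (69.4 to 72.7) at starts with no other coding end that had a region. CCAAT was in 44.4% (41.5 to 47.4), 33.1% (28.5 to 37.9) and 46.0% (44.2 to 47.8) of the same 3 groups. TGACGTCA, the cAMP response element, was in 4.65% (3.54 to 6.07), 1.31% (0.562 to 3.03) and 4.94% (4.21 to 5.79). TATAAA was in 4.83% (3.70 to 6.28), 8.92% (6.46 to 12.2) and 7.01% (6.13 to 7.99), against 15.2% in all windows. The AP-1 motif TGANTCA was in 3.44% (2.50 to 4.70), 4.72% (3.01 to 7.34) and 4.59% (3.89 to 5.42), with overlapping intervals, against 7.41% in all windows. The SP motif did not keep this order in CpG-rich windows. In the highest CpG class it was in 64.4% (58.0 to 70.2) of head-to-head windows with a region and in 83.7% (70.0 to 91.9) without, and at starts with no other coding end in 78.4% (74.1 to 82.2) with and 81.4% (76.1 to 85.7) without. CCAAT was more frequent with a region in every CpG class, at head-to-head starts and at starts with no other coding end. Head-to-head intervals were apart from 0.6 to 0.8, at 49.7% (44.2 to 55.2) with and 32.6% (23.7 to 42.9) without. From 0.8 to 1 they were apart too, at 45.6% (41.1 to 50.1) and 31.5% (23.5 to 40.7), and they overlapped in the other classes.

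**Figure D5:**
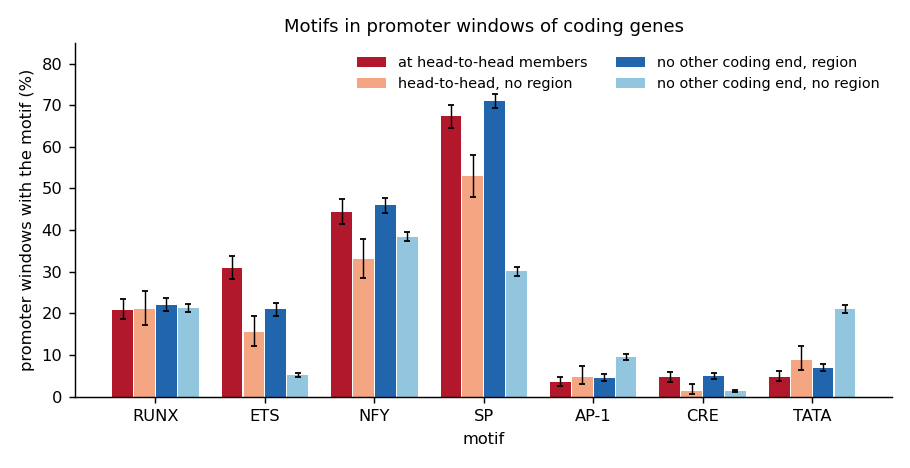
Share of promoter windows with each motif (%, bars with 95% Wilson intervals) at head-to-head gene-pair regions (dark red), head-to-head starts without a region (light red), and starts with no other coding end with (dark blue) and without (light blue) a region. The RUNX core stands at 20.9% to 22.1% in all 4 groups, pooled over CpG classes, and the ETS motif at 31.0% at head-to-head regions and 15.5% at head-to-head starts without one. The light red group includes pairs with starts up to 2000 bp apart.

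The choice of 1 kb left out regions close to those it kept. Just inside it, the Aptx start was 999 bp from the position of the Aptx/Dnaja1 region and the Gmps start 999 bp from that of the Gmps/Slc33a1 region, which was 521 and 505 bp wide. Just outside it, the stop of Ccdc106 lay 1002 bp from a region of 1504 and 1873 bp near U2af2, and the Hnrnpk start 1003 bp from a region of 596 and 847 bp at Rmi1.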

How the data were processed

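The submitters' processing notes name fastp 0.19.6, Bowtie2, deepTools and GRCm38 (mm10), without roles. Which peak caller, threshold or control was used is not given in the sources used here. Per the labels and the files, the authors deposited 1 peak list for each of 2 replicates, with a running number, chromosome, start, end and width, read as counted from 1 with both ends included. The lists hold 26853 and 27287 peaks, no score, signal or read number, so depth is unknown. Peaks were merged, and genes and their ends came from RefSeq gene spans (GRCm38.p6); strand and promoter windows came from the RefSeq promoter table. A gene counted by its start where that lay within 1 kb, otherwise by its stop. Python 3.11.15 with pandas 2.3.3 and numpy 2.4.6 was used. Shared regions equalled those of bedtools, and the steps were tested on simulated peaks. With 1 group of 2 replicates and no control no test was made; Wilson intervals at 95% are given. Regions were ranked by peak width (mean of the ranks in each replicate). Named are the 10 top-ranked members, the 4 top-ranked of each orientation class, textbook pairs, members with osteoblast, osteocyte, AP-1 or YAP genes, the 3 top-ranked of each other list, and the 2 nearest on each side of the 1 kb limit. One pair chosen this way is not reported here. The members and the 23 gene lists were chosen with earlier results of these data known. The alternatives were a reciprocal overlap of 50%, only peaks wider than the list median, limits of 500 and 2000 bp, other positions, each replicate alone, starts only and TGTGGT alone, and, added after the data were seen, orientation by the nearest end, genes with a curated transcript and classes of CpG ratio.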

Additional observations from a re-analysis of the deposited data

How the results depend on the processing

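Of 77 values under the alternatives, 53 stayed within 1.5 times (counts), the interval (shares) or 1 SD (widths and shared peaks) of the main value. For shared peaks that SD comes from 2 counts of the same overlap and does not measure the spread between replicates. The main values are 1140 regions, 78.2% head-to-head of regions with a known class, and 76.9% of close head-to-head pairs with a region. They also include a mean median width of 608.2 bp, 89.6% of peaks shared and 82.9% within 300 bp of the midpoint. The last are 2255 genes and the RUNX core in 20.9% of windows. With a reciprocal overlap of 50%, pairs with a region fell to 64.5%, width was 633.8 bp and shared peaks 72.6%. With only peaks wider than the list median, 55.6% of pairs had a region and width was 700.5 bp. With a limit of 500 bp the values were 85.3% head-to-head, 67.9% of pairs, 614.5 bp, 92.5% shared and 91.5% near the midpoint. With 2 kb they were 66.6% head-to-head, 586.5 bp, 86.4% shared and 74.7% near the midpoint. With gene starts only there were 698 regions with 1401 genes, 97.1% of them head-to-head and 626.2 bp wide, since stops no longer count. With TGTGGT alone the core was in 9.67% of windows. With genes that have a curated transcript, chosen after the data were seen, width was 610.5 bp. Orientation by the nearest end, added at the same time, gave 77.7% head-to-head.

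With each replicate list alone, pairs with a region ranged from 81.1% to 81.8% and width from 568.0 to 569.5 bp, the number of regions from 1267 to 1298, genes from 2416 to 2497, the head-to-head share was 75.9% in each, the share near the midpoint 80.9% to 81.8% and the RUNX core 21.1% to 21.4%. Shared peaks need both lists and have no such value. In all of these settings head-to-head pairs held a region more often than starts with no other coding end (55.6% against 15.9% at the least), though a pair offers 2 starts. Gene-pair peaks were wider than those at 1 coding end by 39.5 to 97.0 bp. List counts changed by over 1.5 times in 19 of 230 cases. With wider peaks only, mitochondrial ribosomal genes fell to 15 from 30, histone to 11 from 24, tRNA synthetase to 8 from 14 and Zfp to 19 from 33. With reciprocal overlap, histone fell to 13 and tRNA synthetase to 9, and with 500 bp translation initiation to 7 from 12. With starts only, splicing fell to 16 from 25, cytoplasmic ribosomal to 7 from 16, proteasome to 7 from 12, Zfp to 20, tRNA synthetase to 7 and cell cycle to 6 from 11. The AP-1 and YAP lists were at 0 with 500 bp and with starts only, AP-1 at 3 with 2 kb, and osteoblast matrix at 1 with the replicate 1 list alone. The same 13 lists stood above the share of all coding genes in each setting but 2 kb, where 14 did. The lists give no depth, and gene strand is missing for a part of the genes. No paired analysis was possible because the 2 replicates form 1 group.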
